A study of Mus musculus with 4 samples.

Results

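The genes described here encode actin, tubulin and the proteins that build, cut, bundle and pull on their filaments. They were measured in peritoneal exudate cells of Cebpe-deficient mice and of wild-type mice. Cebpe encodes C/EBPε, a DNA-binding protein that granulocytes need to complete their maturation. Members were all probe sets, control probe sets left out, with a single annotated gene symbol that began with Actb, Actg, Actn, Actr, Arpc, Capz, Cfl, Pfn, Tmsb, Tpm, Myl, Myh, Coro, Fscn, Tuba, Tubb or Tubg, or that was Vasp, Msn, Ezr, Rdx, Gsn, Lcp1, Vim or Capg. This gave 97 of 13069 probe sets, 62 of 6529 on array type A and 35 of 6540 on array type B, standing for 65 of 6137 named genes. The prefixes also took in Cflar, a regulator of apoptosis, Tubgcp3 and Tubgcp4, which belong to the γ-tubulin complex, and Tubb2a-ps2, a transcribed pseudogene.

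Actin monomers join into filaments whose growth at the cell edge drives crawling and phagocytosis. Arp2/3 starts branches, profilin and thymosins hold the monomers, capping proteins and cofilin stop or sever filaments, and myosin II pulls on them. α- and β-tubulin pair into the building block of microtubules, the tracks of vesicle transport and the fibres of the mitotic spindle, and the chaperonin CCT folds newly made actin and tubulin. Neutrophils and macrophages carry very large amounts of actin, which lets them migrate and engulf.

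The Cebpe-deficient mice (-/-) and the wild-type mice (+/+) shared a mixed 129/SvEv x NIH Black Swiss background and were 6 to 8 weeks old. All received 2 ml of 4% thioglycollate broth into the peritoneal cavity, a sterile irritant that recruits leukocytes, and the exudate was washed out 24 h later. Per the labels there were 4 mice of each genotype, and differential counts of 100 to 200 cells showed some 60% neutrophils and 30% monocytes, with lymphocytes at 7 to 10%, whichever the genotype. Total RNA was hybridised to 4 one-colour Affymetrix arrays, 1 per genotype on each of 2 types with different probe sets. The labels break off where they begin to describe how cells were combined, so each array is treated as 1 sample of unstated pooling. The title of the deficient array of type B names the deficiency, while its RNA source entry does not. Cebpe was not analysed here, so the genotype labels were not checked against the targeted gene.

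Intensities are given as deposited, on a linear scale. A ratio is the log2 of deficient over wild type after scaling, given only where both values lay above a floor, the median of each array type (1036.5 on A and 690.17 on B). With 1 array per genotype and type there was no replicate check, no test and no p-value, and the number of arrays limits the precision. The only error available was the spread between repeat probe sets of a gene, a pooled SD of 0.38 in log2 ratio over 424 genes and of 0.23 over the 17 member genes with several measured probe sets. It holds no spread between mice. All differences given are therefore descriptions of these arrays. Because the RNA came from mixed cells, fewer cells of a type and less RNA per cell cannot be told apart.

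Of the 97 probe sets, 63 had a ratio, 1 had a bound in each direction and 32 lay below the floor in both genotypes. A difference of 2-fold or more was seen at 1 probe set that was higher in the deficient cells (Arpc5) and 3 that were lower (Fscn1, Tubb4b and 1 of the Tubb5 probe sets). Over all 5903 measured probe sets 3.39% were higher and 3.46% were lower by 2-fold. Type A held 0 of the higher and 2 of the lower members, beside 2.54% and 3.15% of all its measured probe sets, and type B held 1 of each, beside 4.23% and 3.76%. Read by gene, 1 member was higher and 3 were lower, beside 2.97% and 3.64% of all genes. At 1.5-fold, 3 member probe sets were higher and 9 lower, and the shares of all probe sets were 12.7% and 11.2%. The 44 measured member genes had a median log2 ratio of 0.01, the same to 2 decimals as the 0.01 of all 3132 measured genes, whose SD was 0.55. Inside this flat total the tubulin genes, γ-tubulin complex included, stood at a median of -0.23 over 9 genes, against 0.09 over 33 actin-filament genes. Without the γ-tubulin complex, the α- and β-tubulins stood at a median of -0.59 over 7 genes. Scaling to the summed bacterial control probe sets, in place of the trimmed mean, moved the median of all genes to 0.24, and 11 member genes with small ratios then had the other sign, Actg1 (0.14), Cfl1 (0.13), Pfn1 (0.22), Ezr (0.13) and Gsn (0.10) among them. All of these 5 lay below that median. Such scaling adds the same amount to every ratio of an array type, so it cannot reorder genes within a type. The α- and β-tubulin median was then -0.24. All 6 tubulin probe sets lower by 1.5-fold were α- or β-tubulins, so they made up most of the 9.

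**Figure D1:**
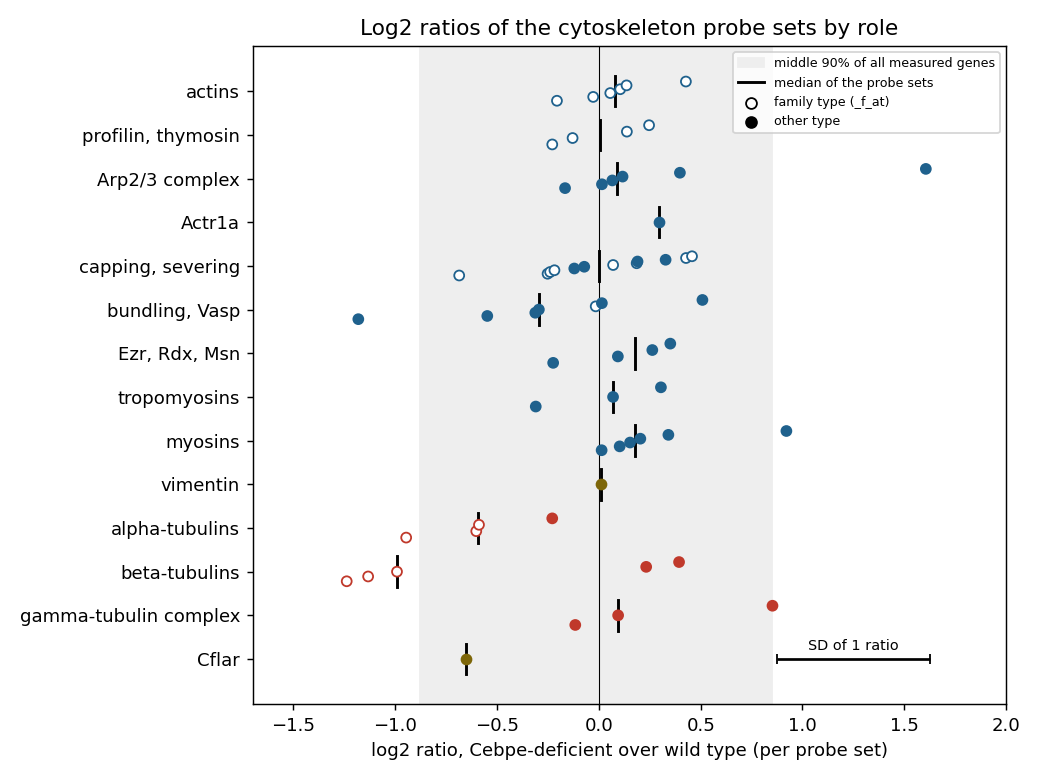
Log2 ratio, Cebpe-deficient over wild type, of each measured probe set (points) by role, with the median of the role as a black bar. The grey band is the middle 90% of all measured genes, -0.88 to 0.85. Most roles sit around 0, the α- and β-tubulins reach -1.24, and Arpc5 of the Arp2/3 complex lies alone at 1.61.

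The promoters of the 4 tubulin genes that were lower by 1.5-fold or more are shown first, because the results turn on them. They are followed by those of Arpc5, the member with the highest ratio, and Actg1, the cytoplasmic γ-actin, whose 2 probe sets gave -0.03 and -0.21. The sequences are RefSeq promoters on GRCm38.p6, from 250 bases before to 50 bases after the annotated start, written 5′ to 3′ along the gene. Capitals mark each CCAAT. The Tuba1a window is chr15:98953452-98953751 on the minus strand, Tuba3a is chr6:125286032-125286331 on the minus strand and Tubb5 is chr17:35838252-35838551 on the minus strand. Tubb4b is chr2:25224653-25224952 on the minus strand, Arpc5 is chr1:152766292-152766591 on the plus strand and Actg1 is chr11:120348446-120348745 on the minus strand.
Tuba1a: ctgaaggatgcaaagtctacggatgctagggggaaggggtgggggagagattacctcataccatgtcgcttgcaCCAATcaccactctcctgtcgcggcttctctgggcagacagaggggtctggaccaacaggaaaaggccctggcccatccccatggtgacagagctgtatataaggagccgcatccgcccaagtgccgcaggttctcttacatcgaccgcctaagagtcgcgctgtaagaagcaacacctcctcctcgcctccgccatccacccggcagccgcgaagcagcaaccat
Tuba3a: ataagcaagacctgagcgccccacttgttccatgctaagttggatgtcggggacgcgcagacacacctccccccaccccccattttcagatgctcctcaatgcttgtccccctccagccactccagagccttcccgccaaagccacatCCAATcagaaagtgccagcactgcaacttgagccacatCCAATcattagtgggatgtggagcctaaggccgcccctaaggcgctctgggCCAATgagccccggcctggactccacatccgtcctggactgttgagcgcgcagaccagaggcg
Tubb5: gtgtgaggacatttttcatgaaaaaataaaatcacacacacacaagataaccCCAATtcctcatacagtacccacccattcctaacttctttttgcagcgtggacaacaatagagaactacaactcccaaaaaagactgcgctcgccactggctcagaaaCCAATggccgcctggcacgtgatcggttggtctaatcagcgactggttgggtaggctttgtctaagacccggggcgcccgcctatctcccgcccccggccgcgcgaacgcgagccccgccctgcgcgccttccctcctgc
Tubb4b: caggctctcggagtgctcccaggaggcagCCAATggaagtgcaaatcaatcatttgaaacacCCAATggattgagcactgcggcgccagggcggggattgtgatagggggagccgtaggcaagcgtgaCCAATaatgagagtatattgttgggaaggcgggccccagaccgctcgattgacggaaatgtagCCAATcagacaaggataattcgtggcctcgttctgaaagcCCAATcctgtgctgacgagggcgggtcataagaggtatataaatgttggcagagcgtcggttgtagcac
Arpc5: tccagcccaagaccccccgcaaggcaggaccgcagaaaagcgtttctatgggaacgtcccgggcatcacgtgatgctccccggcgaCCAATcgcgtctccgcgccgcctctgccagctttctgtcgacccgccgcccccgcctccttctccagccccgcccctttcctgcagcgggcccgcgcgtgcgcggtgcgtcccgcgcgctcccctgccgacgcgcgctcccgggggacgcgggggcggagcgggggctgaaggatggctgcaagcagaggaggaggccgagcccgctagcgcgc
Actg1: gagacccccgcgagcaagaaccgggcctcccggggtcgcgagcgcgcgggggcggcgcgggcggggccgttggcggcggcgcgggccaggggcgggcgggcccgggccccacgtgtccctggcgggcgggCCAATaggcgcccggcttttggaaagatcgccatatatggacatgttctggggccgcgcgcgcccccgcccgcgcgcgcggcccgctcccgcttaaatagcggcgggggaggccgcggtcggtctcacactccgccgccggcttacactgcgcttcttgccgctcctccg

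CCAAT, the letters of the CCAAT box, a short promoter element bound by the factor NF-Y, was present in all 4 tubulin promoters shown. It began at -176 in Tuba1a, at -102, -64 and -13 in Tuba3a, at -198 and -90 in Tubb5, and at -221, -188, -122, -59 and -19 in Tubb4b, counted from the start. Each of these matches lay on the strand shown. The other measured tubulins with a promoter in the table, Tuba4a and Tubb4a, had none. The 4 tubulins shown were read only by probe sets that match several members of a gene family. Their ratios may hold RNA of other tubulins. Arpc5, which was higher, also held a CCAAT, at -164, and so did Actg1, at -120. Over all promoters in the table, 37.4% of 32851 held CCAAT on either strand, and counted by gene 41.1% of 27025 did, against 24 of the 58 member genes with a promoter (41.4%). The 2 shares were nearly the same.

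Other short elements were searched on both strands in the same windows. GGGCGG, the GC box, was in 36 of the 58 member genes (62.1%), against 38.2% of all genes. TATAAA was in 12 members (20.7%), against 15.7% of all genes. TTGCNNAA, a loose form of the C/EBP motif, was in 6 members (10.3%), against 12.2% of all genes, namely Actn1, Cflar, Myh4, Myh8, Pfn1 and Vasp, and in none of the 6 measured α- and β-tubulins with a promoter. The CArG box, the element of serum response factor in muscle and actin genes, was in 4 members (6.9%), Actg1, Arpc4, Myh4 and Myl3, against 1.81% of all genes. In Actg1 it began at -90. In Myh4 the C/EBP motif overlapped the CArG box, the only such overlap among the members. A match is a run of letters and not a measured binding site, and no promoter was in the table for Actb, Actg2, Actn3, Arpc5l, Capza3, Myh11 and Tubb2a-ps2.

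Among the α-tubulins, Tuba1a gave 20523 in deficient cells against 39522 in wild-type cells on type A. Its type B probe set gave 30967 in deficient cells against 46909 in wild-type cells. The gene was thus lower on both array types, by 1.93-fold (log2 -0.95) and 1.52-fold (log2 -0.60). Tuba3a, an isotype known from testis, stood nearer the floor at 1158 in deficient cells and 1738 in wild-type cells (log2 -0.59). A separate probe set annotated to both Tuba3a and Tuba3b, and so not a member, read 615 in deficient cells and 1456 in wild-type cells, the deficient value being below the floor. Tuba4a differed least, with 3316 in deficient cells and 3884 in wild-type cells (log2 -0.23), inside 1 repeat SD.

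Tubb5, the β-tubulin found in most cells, had a pair of probe sets on type B. One read 8977 in deficient cells and 19648 in wild-type cells (2.19-fold lower, log2 -1.13), and the other read 9236 in deficient cells and 18324 in wild-type cells (1.99-fold lower, log2 -0.99). These repeats differed by less than the repeat SD. Tubb4b, another broadly expressed isotype, gave 5165 in deficient cells and 12178 in wild-type cells on type A, 2.36-fold lower (log2 -1.24). The remaining β-tubulin entries went the other way by small amounts. Tubb4a, an isotype best known from brain, had 2705 in deficient cells and 2298 in wild-type cells (log2 0.23) on type B and was below the floor on type A, and Tubb2a-ps2 had 1425 in deficient cells and 1084 in wild-type cells (log2 0.39). Tubb2a and Tubb3 were below the floor on their arrays.

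Counted by probe set, 7 of the 9 measured α- and β-tubulin probe sets had a ratio below 0, against 48.2% of all measured probe sets, and 6 were lower by 1.5-fold or more, with a median of -0.60. All 6 were of the family type, an Affymetrix class whose probes match several members of a gene family, so a reading named Tubb5 may hold RNA of other β-tubulins. The measured tubulin probe sets that were not of this type, for Tuba4a, Tubb4a and Tubb2a-ps2, gave -0.23, 0.23 and 0.39, none of them 1.5-fold lower, and without the family, _g, _r and _i types the tubulin median was 0.23. Probe type by itself moved with the ratio: of 1148 measured family-type probe sets on the arrays 13.9% were lower by 1.5-fold and 59.9% were below 0, with a median of -0.11. The 6 tubulin probe sets of this type had a median of -0.97. The 19 other members of this type, actins and cofilin among them, had a median of 0.06, with 1 of them lower by 1.5-fold. The 10 measured member probe sets without a suffix letter were all above 0, beside 56.7% of all such probe sets.

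**Figure D2:**
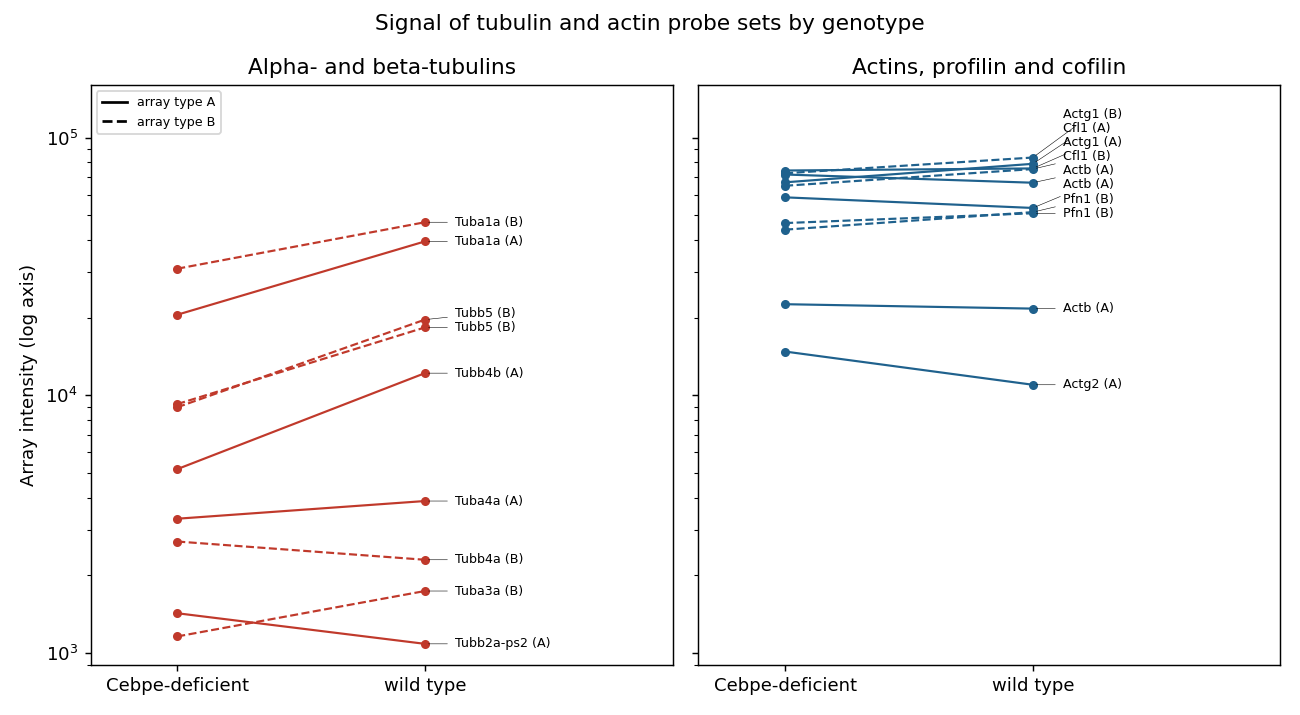
Deposited intensity (log axis) of tubulin and actin probe sets in Cebpe-deficient and wild-type cells, each line 1 probe set, solid for array type A and dashed for B. Lines of Tuba1a, Tubb4b and Tubb5 run higher at wild type, with 5165 for Tubb4b in deficient cells against 12178 in wild-type cells, while those of Actb and Actg1 are nearly level.

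The γ-tubulin complex, which seeds microtubules, did not share this pattern. One Tubgcp4 probe set read 2562 in deficient cells and 1418 in wild-type cells (1.81-fold higher, log2 0.85), whereas the brighter one read 3141 in deficient cells and 2940 in wild-type cells (log2 0.09). The probe sets of this gene thus disagreed by more than the repeat SD. Tubgcp3 had 1386 in deficient cells and 1501 in wild-type cells (log2 -0.12), and Tubg2, a γ-tubulin, was below the floor.

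The actins themselves were among the brightest signals of both genotypes. Actb, the cytoplasmic β-actin, had 3 probe sets on type A, reading 71854, 58595 and 22551 in deficient cells and 66773, 53295 and 21679 in wild-type cells, with log2 ratios of 0.11, 0.14 and 0.06. Actg1, the cytoplasmic γ-actin, read 74469 in deficient cells and 75878 in wild-type cells on A, and 72658 in deficient cells and 83632 in wild-type cells on B. All of these lay within 1 repeat SD of 0. Actg2, the enteric smooth muscle γ-actin, read 14771 in deficient cells and 10978 in wild-type cells (log2 0.43), through a family-type probe set. The control probe sets of β-actin, outside the rule, gave 0.12, 0.14 and 0.13 on A (3′, 5′ and middle of the transcript) and -0.16, -0.25 and -0.17 on B, where those of Gapdh gave -0.23, -0.21 and -0.22. The β-actin 3′ to 5′ ratio was 0.881 in deficient and 0.893 in wild-type RNA on A, and 0.879 in deficient and 0.823 in wild-type RNA on B.

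Bright probe sets can run out of range, and no saturation flag was used here. Of the members, 5 in deficient and 5 in wild-type cells exceeded the 99th percentile of their array on A, and 5 in deficient and 2 in wild-type cells did so on B.

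**Figure D3:**
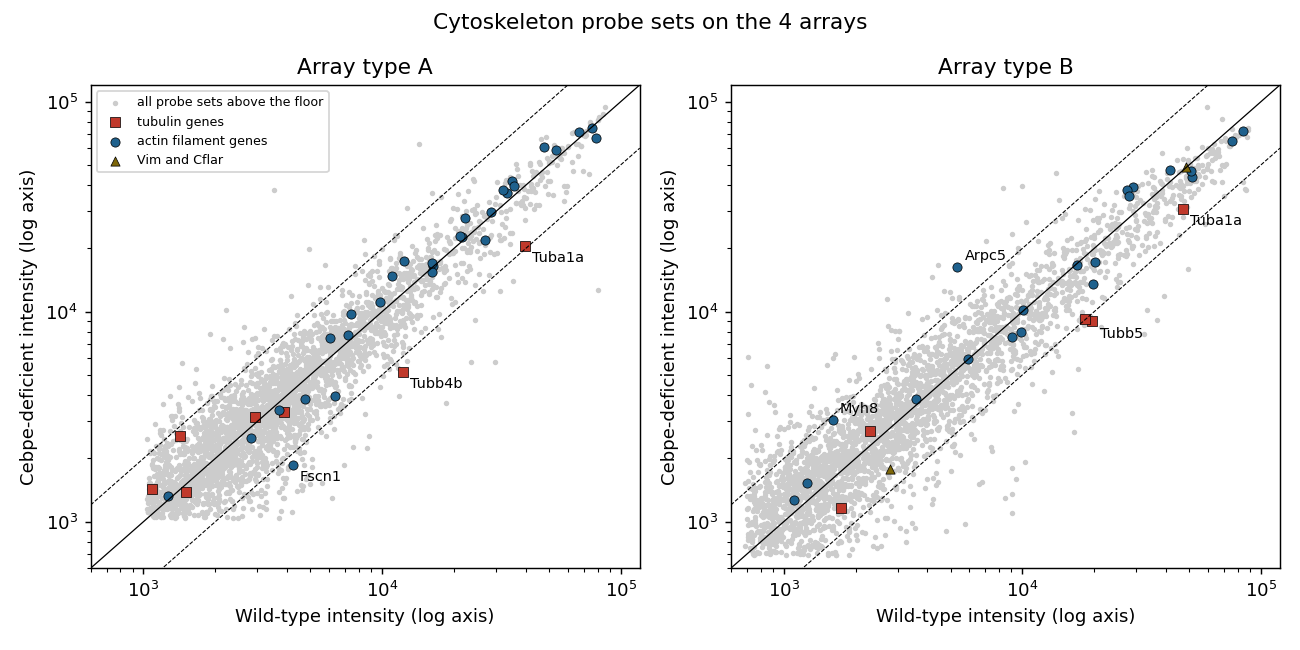
Intensity in Cebpe-deficient against wild-type cells (both axes logarithmic) for all measured probe sets (grey) and the cytoskeleton members (coloured by role), 1 panel per array type. By 2-fold or more, the actin-filament members off the diagonal are Arpc5 (16254 in deficient cells, 5330 in wild-type cells) and Fscn1 (1862 in deficient cells, 4220 in wild-type cells), and several tubulins lie below it.

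The monomer-binding proteins differed little. Pfn1, profilin, read 43899 and 46566 in deficient cells and 51340 and 50819 in wild-type cells on its 2 probe sets (log2 -0.23 and -0.13). Tmsb10, a β-thymosin, read 36855 and 38048 in deficient cells and 33484 and 32052 in wild-type cells (log2 0.14 and 0.25). Tmsb4x, the main thymosin of leukocytes, had 608 in deficient cells and 983 in wild-type cells, both below the floor, so no ratio was taken.

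Arpc5, the smallest subunit of Arp2/3, gave the highest ratio of any member. It read 16254 in deficient cells and 5330 in wild-type cells on type B, 3.04-fold higher (log2 1.61), through its single probe set. No second reading of Arpc5 was available on these arrays. The other subunits did not share a difference of that size. Actr3, one of the actin-related proteins of the complex, read 16454 in deficient cells and 16273 in wild-type cells (log2 0.02), Arpc1a had a ratio of 0.40 and Arpc4 one of 0.12. Arpc5l, the paralog that takes the place of Arpc5 in the complex, gave 0.07 and -0.17 on its 2 probe sets. Arpc2 was below the floor, and a probe set shared by Arpc1b and a second gene, outside the rule, was below it too. Over the 5 measured Arp2/3 genes 4 were above 0, with a median of 0.12, where 49% of all measured genes were below 0. Actr1a, the actin-related protein of dynactin rather than of Arp2/3, had 0.29.

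Proteins that cap, sever or depolymerise filaments had a median of 0.06 over 8 measured genes, 4 on either side of 0. Cfl1, cofilin, which severs old filaments, was the brightest of them and read 67016 in deficient cells and 79063 in wild-type cells on A, and 64984 in deficient cells and 75437 in wild-type cells on B, with ratios of -0.24 and -0.22. Capg, a gelsolin relative abundant in macrophages, read 39337 and 37820 in deficient cells and 29178 and 27488 in wild-type cells on B (log2 0.43 and 0.46), and its type A probe set had negative values in both genotypes. Gelsolin itself, Gsn, went the other way. It read 3948 in deficient cells and 6347 in wild-type cells on A (1.61-fold lower, log2 -0.69) and 7583 in deficient cells and 9011 in wild-type cells on B (log2 -0.25). The sign was shared by both array types and the size was not. The capping protein genes Capza1, Capza2 and Capzb lay between -0.07 and 0.19, and the coronins Coro1a and Coro2b had 0.33 and -0.12.

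Genes whose products bundle or elongate filaments were below 0 in 5 of 5 measured cases when read by their brightest probe set, against 49% of all measured genes. Their median was -0.31. By probe set 5 of 7 were below 0, against 48.2% of all measured probe sets. Actn4 turned to 0.34 with bacterial control scaling, to 0.05 with quantile scaling and to 0.06 with loess scaling. Fscn1, fascin, which packs filaments into tight bundles in filopodia and in mature dendritic cells, read 1862 in deficient cells and 4220 in wild-type cells (2.27-fold lower, log2 -1.18). It was the only actin-filament probe set lower by 2-fold or more. Vasp, which lengthens filaments at the leading edge, read 13555 in deficient cells and 19777 in wild-type cells (1.46-fold lower, log2 -0.55). The α-actinins Actn1 and Actn4 had -0.31 and -0.02, and the other measured Actn4 probe set gave 0.01. Lcp1, the leukocyte plastin, gave no settled direction: one probe set read 17507 in deficient cells and 12299 in wild-type cells (log2 0.51), and the other read 22014 in deficient cells and 26986 in wild-type cells (log2 -0.29). Dendritic cell markers were too few to set beside Fscn1, with 1 measured gene of 3 and 1 bound in each direction.

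The ezrin, radixin and moesin proteins tie actin to the membrane. Msn, moesin, the main one in leukocytes, read 41964 in deficient cells and 34964 in wild-type cells on A, and 35600 in deficient cells and 27860 in wild-type cells on B (log2 0.26 and 0.35), while 2 further probe sets on A were below the floor. Ezr had -0.22 and Rdx 0.09. Among the tropomyosins, which wrap filaments, Tpm4 was the brightest at 17041 in deficient cells and 16228 in wild-type cells (log2 0.07). Tpm3 had opposite signs on its probe sets, 0.30 on A and -0.31 on B. Tpm1 had 957 in deficient cells, under the floor, and 2005 in wild-type cells, and was at least 1.93-fold lower. Vim, vimentin, the intermediate filament protein of leukocytes and fibroblasts, was level at 48686 in deficient cells and 48284 in wild-type cells (log2 0.01).

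Of the 15 genes with a myosin symbol, Mylk, a kinase of the light chains, among them, 4 had a ratio, and all 4 were above 0, with a median of 0.27, where 49% of all measured genes were below 0. Myh9, the non-muscle myosin II heavy chain of leukocytes, read 39704 in deficient cells and 35684 in wild-type cells on its brightest probe set (log2 0.15), and its other probe sets gave 0.10 and 0.01. Myl12b, its regulatory light chain, read 60546 in deficient cells and 47761 in wild-type cells (log2 0.34). Signals named for muscle myosins were small. Myh8, the perinatal muscle heavy chain, read 3043 in deficient cells and 1604 in wild-type cells on B (1.89-fold higher, log2 0.92) but was negative in both genotypes on A. Myh4 had 1274 in deficient cells and 1104 in wild-type cells (log2 0.20), and Myh3 had 1118 in deficient cells and 80 in wild-type cells, a bound of at least 1.08-fold higher. The other 10 myosin genes were below the floor. Of 8 striated muscle markers 4 were measured, 3 of them lower in deficient cells, with a median of -0.22. Their summed signals were 2269 in deficient cells and 3269 in wild-type cells on A, and 63040 in deficient cells and 71252 in wild-type cells on B. The B sum includes Actc1, an actin read through a family-type probe set at 28733 in deficient cells and 32931 in wild-type cells. The part of these markers in the muscle myosin values was not tested.

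Cflar, taken in by its prefix, read 1779 in deficient cells and 2789 in wild-type cells (1.57-fold lower, log2 -0.65). The 19 genes below the floor in both genotypes on all their probe sets were Actn3, Arpc2, Capza3, Cfl2, Myh11, Myh14, Myh6, Myl1, Myl10, Myl2, Myl3, Myl4, Mylk, Mylpf, Tmsb4x, Tpm2, Tubb2a, Tubb3 and Tubg2. Muscle and neuronal isoforms make up most of them. A further 7 genes, Actn1, Actn4, Actr3, Capg, Msn, Myh8 and Tubb4a, were measured by one probe set and below the floor on another. The probe sets of Myl6 and Myh7b that carry other symbols too are outside the rule and gave 0.03 and -0.16.

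Genes that fold tubulin and actin were mostly below 0 as well. Of the 15 chaperonin and prefoldin genes looked for, 11 had a probe set and 10 a ratio, 8 of them below 0, against 49% of all measured genes, with a median of -0.31 that became 0.03 with bacterial control scaling. Cct6a, a subunit of the chaperonin CCT, read 1218 in deficient cells and 4161 in wild-type cells (3.42-fold lower, log2 -1.78), Cct3 read 1476 in deficient cells and 3298 in wild-type cells (2.24-fold lower, log2 -1.16), and Cct4, the brightest, read 13335 in deficient cells and 15651 in wild-type cells (log2 -0.23). All 7 measured Cct subunits and Tcp1 were below 0, and Pfdn6 and Pdcl3 were above it.

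The partners of tubulin had no common direction. Of 38 genes for folding cofactors, microtubule-binding proteins and motors, 19 had a probe set and 8 a ratio, 3 above 0 and 5 below, with a median of -0.10. Mapre1, a plus-end binding protein and the brightest, read 13067 in deficient cells and 16740 in wild-type cells (log2 -0.36). Tbca, a β-tubulin folding cofactor, had a ratio of -0.81. Stmn1, stathmin, which sequesters tubulin dimers, read 194 in deficient cells and 1507 in wild-type cells and was at least 2.19-fold lower. Kif20a, a mitotic kinesin, read 3100 in deficient cells and 155 in wild-type cells and was at least 4.49-fold higher, the reverse of most cell cycle markers.

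Around actin, the 44 genes of filament nucleation and its regulation gave 19 ratios out of 24 with a probe set, 11 above 0 and 8 below, with a median of 0.13. By 2-fold or more 1 of them was higher and 1 was lower. Rac2, the leukocyte Rac GTPase and the brightest, read 67836 in deficient cells and 78409 in wild-type cells (log2 -0.21). Mrtfa, the actin-sensing cofactor of serum response factor, read 4837 in deficient cells and 2071 in wild-type cells (2.33-fold higher, log2 1.22). Of 39 further actin-binding genes 23 had a probe set and 14 a ratio, 5 above 0 and 9 below, with a median of -0.19 (0.08 with bacterial control scaling). Tagln2, the brightest, read 51724 in deficient cells and 62738 in wild-type cells (log2 -0.28). Marcksl1, a membrane-bound actin regulator, read 12545 in deficient cells and 26460 in wild-type cells (2.11-fold lower, log2 -1.08), and Acta2, smooth muscle α-actin, read 344 in deficient cells and 1790 in wild-type cells, at least 2.60-fold lower. Among lamins and other intermediate filaments Lmna read 6257 in deficient cells and 8411 in wild-type cells (log2 -0.43). Lmnb2 was higher, with 7055 in deficient cells and 2471 in wild-type cells (2.85-fold, log2 1.51), while its relative Lmnb1 had 514 in deficient cells and 1971 in wild-type cells, at least 1.90-fold lower.

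**Figure D4:**
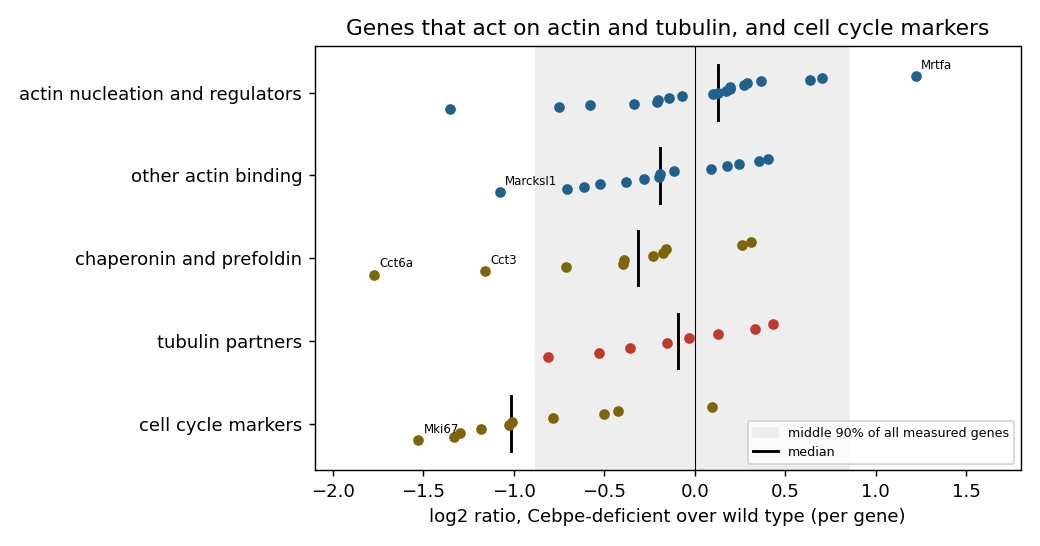
Log2 ratio, Cebpe-deficient over wild type, of measured genes (points) in lists that act on actin and tubulin and in the cell cycle marker list, with list medians as black bars and the middle 90% of all measured genes (-0.88 to 0.85) in grey. The cell cycle markers have a median of -1.02 and the chaperonin list one of -0.31, while the nucleation list sits at 0.13.

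Cell cycle markers were mostly lower in the deficient cells. Of 15 cell cycle genes with a probe set 10 had a ratio, 9 of them below 0 and 6 lower by 2-fold or more, against 49% and 3.64% of all measured genes. Their median was -1.02, or -0.67 with bacterial control scaling, and 3 more genes were bounds in the same direction. Their summed signal was 13854 in deficient cells and 29333 in wild-type cells on A, and 9337 in deficient cells and 18795 in wild-type cells on B, ratios of 0.472 and 0.497. Mki67, the proliferation antigen, read 1751 in deficient cells and 5043 in wild-type cells (log2 -1.53). None of the measured cell cycle markers was at 0. Their part in the tubulin and chaperonin values was not tested.

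Markers of the labelled cells were present in both genotypes. The neutrophil list had 8 ratios out of 11 genes, 8 below 0, against 49% of all measured genes. Their median was -0.97, with 4 genes lower by 2-fold or more, against 3.64% of all. A further 2 genes were bounds in the same direction. The ratios ran from -2.40 to -0.08, the highest being that of S100a8, at 62899 in deficient cells and 66423 in wild-type cells. The summed signal of the list was 105212 in deficient cells and 136450 in wild-type cells on A, and 79529 in deficient cells and 120240 in wild-type cells on B. The monocyte and macrophage list had 12 ratios out of 12, 8 below 0, against 49% of all measured genes, with a median of -0.54. It was mixed, with 3 genes higher by 1.5-fold or more and 5 lower, against 11.6% and 11.4% of all measured genes. Its ratios ran from -2.30 (Mrc1) to 0.97 (Ccr2). Its summed signals were 157056 in deficient cells and 183407 in wild-type cells on A, and 268599 in deficient cells and 331431 in wild-type cells on B. Fibroblast and mesothelial markers, of cells that also make tropomyosins and tubulins, had 5 ratios out of 11 genes, 5 below 0, with a median of -0.57. Their summed signal was 3657 in deficient cells and 4729 in wild-type cells on A, and 8759 in deficient cells and 21482 in wild-type cells on B. Col3a1 read 2265 in deficient cells and 7353 in wild-type cells, and Krt18, Krt19, Lum, Msln, Upk3b and Col1a2 were below the floor in both genotypes. Other marker lists had medians of -0.11 over 5 measured B cell genes, -0.14 over 3 mast cell genes and 0.12 over 2 smooth muscle genes. The 2 smooth muscle ratios were those of Tagln (-0.19) and of Actg2 (0.43), itself a member. A further 3 smooth muscle genes, Acta2 among them, and 1 B cell gene were bounds in the lower direction, and 1 mast cell gene was a bound in the higher one. The T and NK cell list had no ratio. The part of any of these cell types in the cytoskeleton values was not tested.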

How the data were processed

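The authors deposited intensities of 4 one-colour arrays on a linear scale. They are whole numbers, and 20.6% to 29.3% of an array's values lie below 0. How the authors corrected and scaled them is not given in the sources used. Within each array type both arrays were scaled to a common mean after leaving out 2% of the non-control probe sets at each end (factors 0.999 to 1.001). The median of both scaled arrays served as floor. A probe set above it on 1 array gave a bound, written as at least N-fold, and a gene was read by its measured probe set with the highest signal over the floor. Rank correlations between the genotypes were 0.929 on A and 0.921 on B (Spearman, across probe sets, which are not independent replicates). All 97 member probe sets matched a RefSeq gene ID.

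The members, gene lists and roles were chosen with earlier results of these data known. Named genes were members 1.5-fold apart, the brightest of each role, all measured actins and α- and β-tubulins, and, of the pathway lists but not the marker lists, genes 2-fold apart or brightest. Further genes, picked once values were known, are named for contrast. One gene that this rule names is not reported here. Alternatives covered other scalings, floors, fold thresholds, probe types, 1 array type, and other ways to read a gene. For the α- and β-tubulins, all probe sets and the list medians they were added after seeing the data. The scripts were tested on simulated data. Work was done in Python 3.11.15 with pandas 2.3.3, numpy 2.4.6, statsmodels 0.14.6, scipy 1.17.1 and matplotlib 3.10.9.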

Additional observations from a re-analysis of the deposited data

How the results depend on the processing

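With the summed bacterial control probe sets as the scale, the median of all genes was 0.24 and the member median was 0.27. The actin-filament median was 0.32 and the α- and β-tubulin median -0.24. This scaling shifts all ratios of an array type equally, so it says nothing on the order of genes within a type. Members 2-fold higher were then 3 and lower 1, and all probe sets split into 488 higher and 110 lower, against 200 and 204. A floor at the 30th percentile gave 5 members lower (660 higher and 630 lower among all). One at the 70th gave a tubulin median, γ-tubulin complex included, of -0.42 over 6 genes, against -0.23 as reported (76 and 67 among all). Without suffixed family, _g, _r and _i probe sets, 1 member was lower, 0 α- and β-tubulin probe sets were 1.5-fold lower, and the tubulin and the α- and β-tubulin medians were 0.23, the reverse sign, because Tuba1a, Tuba3a, Tubb4b and Tubb5 then had no probe set. Type A alone gave 0 members higher and 2 of the α- and β-tubulin probe sets. Type B alone gave 1 member lower and a tubulin median of -0.60 over 4 genes, against -0.23 as reported. At 1.5-fold 9 members were lower and 3 higher, and at 3-fold 0 were lower. The median of all genes was -0.0083 under loess and -0.037 on B. Loess and quantile scaling, whose correction varies with intensity, each gave an α- and β-tubulin median of -0.45. Each left 5 of these probe sets 1.5-fold lower, and Tuba1a then stood at -0.45, less than 1.5-fold lower. Among all probe sets with a signal over 20 times the floor, 427 of 713 ratios were below 0, with a median of -0.11. Bacterial scaling turned the actin-binding list to 0.083 and the chaperonin list to 0.035. The intermediate filament list had a median of 0.54 over 2 genes as reported. It was -0.55 over 5 genes with the floor at the 30th percentile, -0.43 for 1 gene on A and -0.14 over 5 genes with bounds. The nucleation list was -0.20 on B. The cell cycle median was -0.67 with bacterial scaling and -0.78 both with bounds and under the higher floor. For these lists the cause was not tested. Of 348 values for 46 member genes, 345 moved by less than the repeat SD over all genes, 0.38. Many could not move by design, since another floor or choice of probe types leaves a ratio unchanged while its probe set is kept. Values that a setting removed, as for Tuba1a and Tubb5 without suffixed probe sets, are not among them. The count is therefore no measure of robustness. Small ratios changed sign in 14 genes under some setting, none larger than 0.31 in size as reported, and no gene 1.5-fold apart did. Arpc5 ranged over 1.43 to 1.96, Tubb4b over -1.28 to -1.03 and Tubb5 over -1.31 to -0.78. No paired analysis was possible because each genotype had 1 array per type.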
